A study of Mus musculus with 6 samples.

Results

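The mitotic kinases and spindle checkpoint genes described here are Bub1, Bub1b, Mad2l1, Aurka, Aurkb, Plk1, Cdc20, Ttk, Cenpa and Birc5. They were chosen by name: every probe of the deposited table whose array annotation gives one of these 10 symbols is included, which gave 14 probes for 9 genes out of 25697 probes in all. Aurkb had no probe under this rule and is not analysed here. Expression was measured on 6 Illumina bead arrays in 3 groups of mouse cells with 2 arrays each. The groups are piPSC, pluripotent stem cells induced with recombinant proteins, ES, embryonic stem cells of the R1 line, and OG2-MEF, fibroblasts from E13.5 embryos of mice in which the Oct4 promoter drives a green fluorescent protein gene. Per the labels, ES cells grew in serum with leukemia inhibitory factor on feeders, which are irradiated MEF, and piPSC carry the same culture text. OG2-MEF grew on gelatin-coated dishes. The titles name biological replicates, without saying whether these were separate cultures, and the labels give no clone or passage number for piPSC. The p-values therefore rest on how far these samples differ from each other, which may be technical, and the number of arrays limits the precision.

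As background, a dividing cell holds its chromosomes at metaphase until every kinetochore, the protein platform on the centromere, is attached to spindle microtubules. Unattached kinetochores recruit the kinases Ttk (Mps1) and Bub1 and the BubR1 protein, encoded by Bub1b, and they catalyse a complex of BubR1, Bub3, Mad2 (Mad2l1) and Cdc20. This complex inhibits the anaphase-promoting complex (APC/C), a ubiquitin ligase that needs Cdc20 as its activator and that starts anaphase by marking securin and cyclin B for destruction. Aurora A (Aurka) and Plk1 act on centrosomes and spindle poles, while Aurora B (Aurkb) and survivin (Birc5) belong to the chromosomal passenger complex, which corrects faulty attachments. Cenpa encodes the histone H3 variant that marks the centromere. Transcripts of most of these genes accumulate in G2 and mitosis, so their level in a culture depends both on how many cells are in those phases and on the RNA of each cell. In bulk RNA, fewer cells of a kind and less RNA per cell cannot be told apart.

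Many genes transcribed in G2 and mitosis carry a short promoter element, the cell cycle genes homology region (CHR, most often TTTGAA, with TTCGAA as a variant), which binds the MuvB core of the DREAM and B-Myb complexes, and CCAAT boxes, which bind the factor NF-Y. RefSeq promoter windows (build GRCm38.p6, 250 bases before to 50 after the start given for each promoter) were found for 9 of the 10 genes, all but Aurkb. In Bub1b, Ttk, Cenpa and Aurka that start lay inside the annotated gene, downstream of its first base. For Aurka, on the minus strand, the whole window printed below lay inside the gene, which extends to position 172370886. Positions and distances are counted from the start of the promoter. Within 50 bases either side of the start, 7 of these 9 windows held TTTGAA or TTCGAA on either strand (77.8%), compared with 1430 of 27025 promoters in the table (5.29%) and 44 of 124 promoters of other mitotic genes listed below (35.5%). Over the whole window the shares lay closer together, with 7 of 9, 5254 of 27025 (19.4%) and 58 of 124 (46.8%). TTTGAA differs from its reverse complement and was searched on both strands, TTCGAA reads the same on both, and the motifs do not overlap each other. CCAAT occurred on either strand of the whole window in 7 of 9 of these promoters (77.8%), against 70 of 124 promoters of the other mitotic genes (56.5%) and 37.9% of all promoters. The 124 promoters come from all the lists, also that of general proliferation genes. These shares are a description with no test. The windows from 150 bases before to 50 bases after the start are printed for 7 genes, because they show the shared motif beside genes whose levels differed between groups in unlike ways, and Mad2l1 because it held neither motif. Capitals mark matches to these motifs, in either orientation.
Bub1b: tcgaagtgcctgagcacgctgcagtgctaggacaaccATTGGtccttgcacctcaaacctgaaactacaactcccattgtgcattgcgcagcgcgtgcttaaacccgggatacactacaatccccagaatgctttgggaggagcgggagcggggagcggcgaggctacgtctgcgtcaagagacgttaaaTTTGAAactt
Mad2l1: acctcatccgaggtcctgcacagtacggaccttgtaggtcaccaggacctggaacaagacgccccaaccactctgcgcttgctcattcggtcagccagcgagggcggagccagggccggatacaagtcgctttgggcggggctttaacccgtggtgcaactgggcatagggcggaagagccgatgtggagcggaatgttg
Ttk: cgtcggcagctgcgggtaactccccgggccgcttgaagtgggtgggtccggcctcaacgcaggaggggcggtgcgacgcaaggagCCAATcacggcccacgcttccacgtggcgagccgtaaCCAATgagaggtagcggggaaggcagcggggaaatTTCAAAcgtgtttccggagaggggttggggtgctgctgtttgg
Cdc20: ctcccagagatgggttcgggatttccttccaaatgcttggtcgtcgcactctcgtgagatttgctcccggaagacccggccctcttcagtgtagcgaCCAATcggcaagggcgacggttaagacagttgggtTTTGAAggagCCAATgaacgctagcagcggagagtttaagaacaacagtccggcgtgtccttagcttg
Aurka: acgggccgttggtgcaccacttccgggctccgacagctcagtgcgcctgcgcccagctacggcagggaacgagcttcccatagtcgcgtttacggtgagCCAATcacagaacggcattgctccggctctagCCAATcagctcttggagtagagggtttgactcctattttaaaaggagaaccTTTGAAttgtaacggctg
Plk1: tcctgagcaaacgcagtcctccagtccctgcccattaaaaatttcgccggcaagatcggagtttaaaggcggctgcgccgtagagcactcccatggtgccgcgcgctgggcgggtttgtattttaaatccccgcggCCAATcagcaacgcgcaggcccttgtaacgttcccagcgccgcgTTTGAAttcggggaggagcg
Cenpa: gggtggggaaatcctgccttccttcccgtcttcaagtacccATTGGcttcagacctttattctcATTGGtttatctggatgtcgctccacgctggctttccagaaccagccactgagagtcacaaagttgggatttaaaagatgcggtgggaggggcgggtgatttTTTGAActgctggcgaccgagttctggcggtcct
These windows lie at chr2:118598061-118598260 on the plus strand for Bub1b, chr6:66535071-66535270 plus for Mad2l1, chr9:83834539-83834738 plus for Ttk, chr4:118437294-118437493 minus for Cdc20, chr2:172370521-172370720 minus for Aurka, chr7:122159285-122159484 plus for Plk1 and chr5:30666736-30666935 plus for Cenpa. The first base of TTTGAA lay at 41 in Bub1b, 33 in Aurka, 31 in Plk1, 17 in Cenpa and -18 in Cdc20, counted from the start as 1, and its reverse complement began at 8 in Ttk. Birc5, like Mad2l1, held neither motif nor CCAAT in its window, and Bub1 held TTCGAA at 15.

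**Figure D1:**
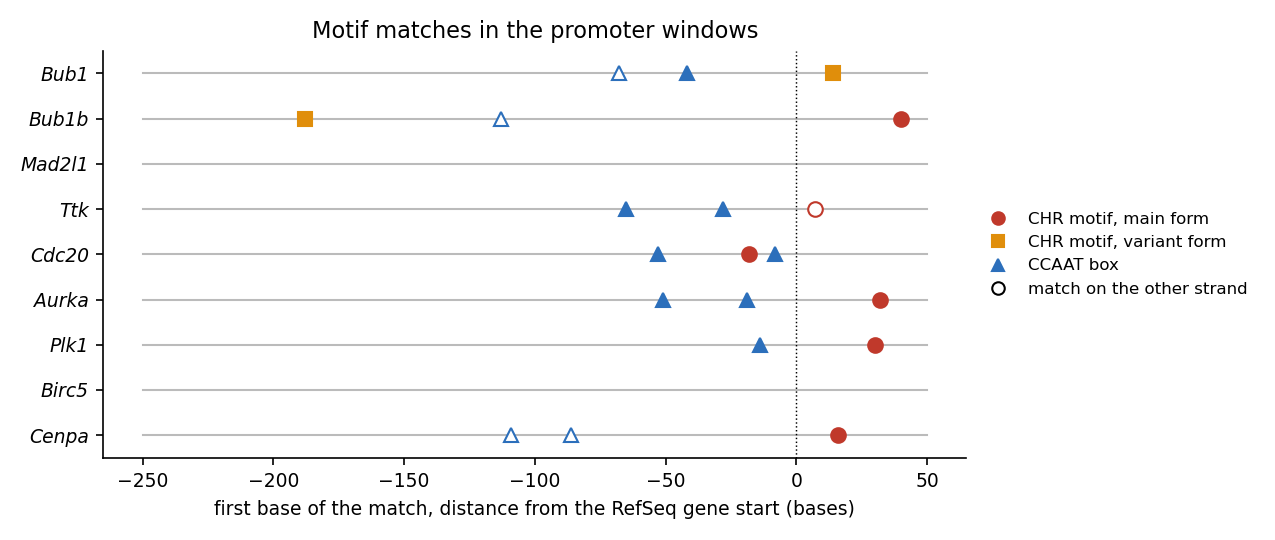
Motif matches in the promoter windows of the 9 genes with a RefSeq promoter. The x axis is the distance in bases of the first base of a match from the start given for the promoter. Its label calls this the gene start. Each row is a gene. Circles and squares mark the main and variant CHR motif and triangles the CCAAT box, with open symbols for matches on the other strand (the variant motif reads the same on both strands and is drawn filled). The 7 rows with a circle or square near the start are Bub1, Bub1b, Ttk, Cdc20, Aurka, Plk1 and Cenpa, and the rows of Mad2l1 and Birc5 are empty.

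Signals are given on the log2 scale after background correction and quantile normalization, and a probe counted as above background on an array where its detection p was under 0.05. The levels of different probes are not comparable with each other, so only the same probe is compared between groups. Total signal per array ranged from 13019817 to 19598206 and between 46.87% and 52.41% of probes were above background, with the lowest share on ES replicate 2. The ES arrays differed most from each other: the difference between replicates had an SD over features of 0.57 in ES, against 0.204 for piPSC and 0.188 for OG2-MEF. On ES replicate 2, 495 features were lower than on ES replicate 1 by over 2-fold and 27 were higher by over 2-fold. These values cannot say which of the 2 ES arrays departs from the cells. The single spread per gene used in the fit may thus make p-values of comparisons with ES too small. For genes whose ES arrays lay far apart, it may make those of piPSC against OG2-MEF too large. Differences that involve ES are therefore also given without ES replicate 2 for the probe used of each member and for many other genes named here. Where no such value is given, as for most other probes of a gene and for genes that did not pass, the difference rests on both ES arrays. Values without ES replicate 1 are given for few genes. With 1 array of a group left out, the spread comes from the other groups, so p-values of such fits do not measure how far that group varies. The defining markers matched the labels. All 8 pluripotent markers, among them Pou5f1 and Nanog, were above background on every piPSC and ES array, against 2 and 1 of them on the OG2-MEF arrays. The 10 fibroblast markers averaged 8.99 and 8.89 in piPSC, 8.53 and 8.60 in ES, and 11.89 and 11.78 in OG2-MEF, with 9 or 10 of them above background on every array.

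Of the 9 genes with a probe, 8 could be tested. Bub1, the checkpoint kinase that recruits other checkpoint proteins to kinetochores, had a single probe that was not above background on any array, with 4.46 and 4.54 in piPSC, 4.55 and 4.57 in ES, and 4.54 and 4.34 in OG2-MEF. Its detection p-values lay between 0.271 and 0.885. The Bub1 signal therefore gives no measure of the gene in these cells. The other 13 probes passed the filter, which kept probes above background on both arrays of at least 1 group. Of these, 12 were above background on both arrays of every group and would have passed in any single group, and the exception is a Cdc20 probe described with that gene.

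The first question is how these genes differ between induced cells and reporter fibroblasts. Of the 8 genes tested, 4 rose in piPSC and 0 fell: Bub1b, Mad2l1, Birc5 and Cenpa. Here and below, a change means at least 2-fold with an adjusted p below 0.05, and by that rule 20% of all 10748 features tested rose and 21.4% fell. Without a fold threshold 7 of the 8 passed as higher, all but Aurka, and 0 as lower, against 33.6% and 34.5% of all features. The same 7 were higher on every piPSC array than on every OG2-MEF array, an order that 45% of all features showed, while 1 was lower on every array, against 43.8%. The median log2 fold change of the 8 genes was 0.89, against 0.02 over all features.

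In the comparison of ES with OG2-MEF, an established pluripotent line set against the same fibroblast arrays, 5 of the 8 genes rose and 0 fell. They were Bub1b, Ttk, Mad2l1, Cdc20 and Cenpa, and 25.1% of all features rose and 21.6% fell. The median of the 8 was 1.07, against 0.15 over all features, and 7 were higher on every ES array than on every OG2-MEF array, as were 47.1% of all features, while 0 were lower on every array, against 38.4%. With no fold limit 6 passed as higher and 0 as lower, against 40.1% and 33.1% of all features. The count of 5 was the same without ES replicate 2. In the direct comparison of piPSC with ES, 0 of the 8 rose and 1 fell, Ttk, against 4.32% and 4.34% of all features. At an unadjusted p under 0.05 with no fold limit, 2 were higher and 3 lower in piPSC, against 13.7% and 30.4% of all features. With the adjusted p and no fold limit, 1 was higher and 3 were lower, against 8.7% and 18.6%. Of the 8, 2 were higher on every piPSC array than on every ES array, against 22.3% of all features, and 5 were lower, against 47.1%. Both comparisons with OG2-MEF use the same fibroblast arrays, so their values are given side by side and are not independent of each other.

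**Figure D2:**
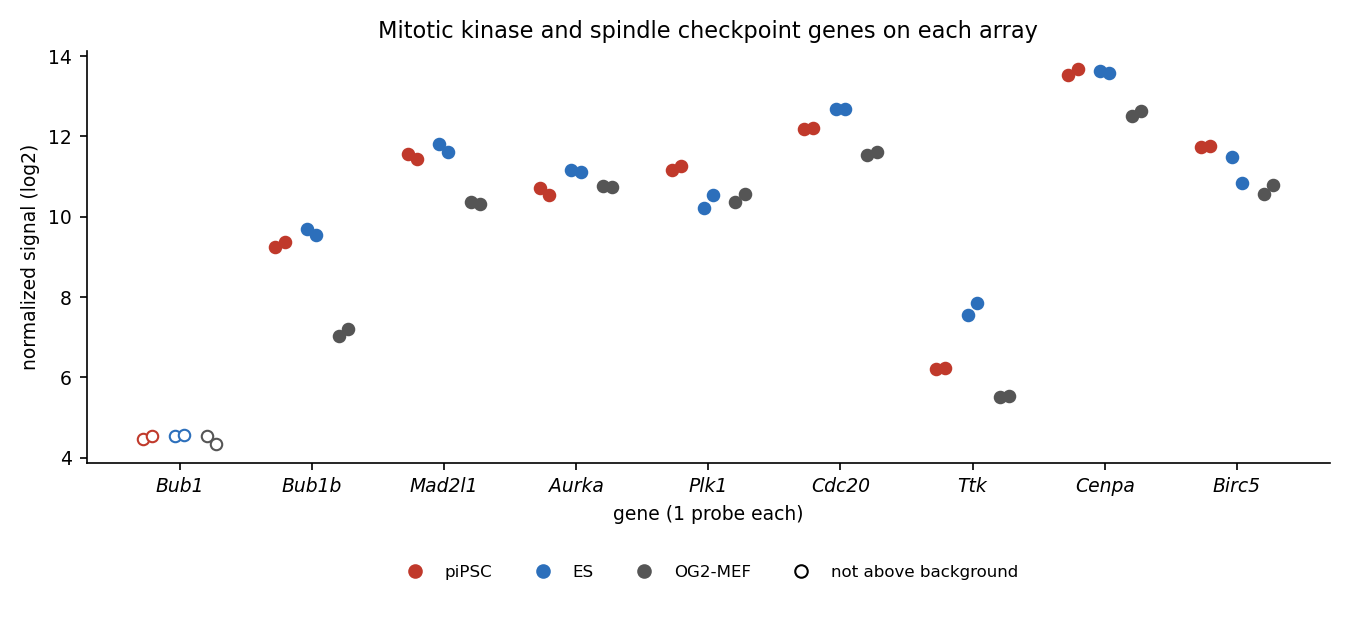
Normalized signal (log2, y axis) of 9 genes on each of the 6 arrays, 1 probe per gene, with piPSC left, ES in the middle and OG2-MEF right within each gene. Filled points are above background and open points are not; each point is 1 array. Bub1 lies at background in all groups, Bub1b is at 9.25 and 9.37 in piPSC, 9.70 and 9.55 in ES, and 7.04 and 7.21 in OG2-MEF, and the Plk1 points of ES and OG2-MEF overlap below those of piPSC. Heights of different genes are not comparable.

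Among the checkpoint genes, Bub1b showed the largest difference of the tested genes from fibroblasts. Its signal was 9.25 and 9.37 in piPSC, 9.70 and 9.55 in ES, and 7.04 and 7.21 in OG2-MEF. All 4 arrays of pluripotent cells lay above both fibroblast arrays. The log2 fold change was 2.19 in piPSC against OG2-MEF (SE 0.14, adjusted p = 2.7e-05, limma), a 4.56-fold difference, and 2.50 in ES against OG2-MEF (SE 0.14, adjusted p = 1.5e-05), or 2.55 without ES replicate 2. Between piPSC and ES the difference was -0.32, with a 95% interval from -0.65 to 0.02 (adjusted p = 0.13), and -0.39 without ES replicate 2. The order was thus ES, piPSC and OG2-MEF, with the first pair not separated by the test although the arrays did not overlap.

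Mad2l1, which encodes the protein that binds and sequesters Cdc20, had 11.56 and 11.44 in piPSC, 11.81 and 11.62 in ES, and 10.37 and 10.33 in OG2-MEF. The fibroblast arrays were again the lowest, and the piPSC and ES arrays lay next to each other. Mad2l1 rose by 1.16 in piPSC against OG2-MEF (SE 0.13, adjusted p = 0.00036) and by 1.37 in ES against OG2-MEF (SE 0.13, adjusted p = 0.00015), and by 1.46 with ES replicate 2 left out. The difference between piPSC and ES was -0.21, with a 95% interval from -0.53 to 0.11 (adjusted p = 0.26), or -0.31 without ES replicate 2.

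Ttk, the kinase at the top of the checkpoint, was the gene with a change of at least 2-fold between the pluripotent groups. It measured 6.21 and 6.24 in piPSC, 7.55 and 7.85 in ES, and 5.52 and 5.53 in OG2-MEF. The groups did not overlap, and the piPSC arrays lay between the others, closer to the fibroblasts. Ttk was 2.78-fold lower in piPSC than in ES (log2 fold change -1.47, SE 0.14, adjusted p = 0.0028), and -1.32 without ES replicate 2. This call ended without piPSC replicate 1, at the same size (-1.48). ES was above OG2-MEF by 2.17 (SE 0.14, adjusted p = 2.9e-05), or 2.04 without ES replicate 2. piPSC exceeded OG2-MEF by 0.70 (SE 0.14, adjusted p = 0.0049), which is 1.62-fold and short of the 2-fold limit. The raw intensities behind these values were low, 102 and 106 in piPSC, 175 and 172 in ES, and 83 and 82.8 in OG2-MEF. The fold changes of this probe therefore depend on the background correction more than those of the brighter ones, and piPSC against ES was -1.07 on the authors' log2 values without ES replicate 2, the smallest difference under any setting.

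Cdc20, the APC/C activator that the checkpoint holds back, had 4 probes. On the probe used for the gene, the brightest, it measured 12.18 and 12.21 in piPSC, 12.68 and 12.69 in ES, and 11.54 and 11.62 in OG2-MEF. The 3 groups did not overlap, with ES the highest. It rose by 1.10 in ES against OG2-MEF (SE 0.12, adjusted p = 0.00023; 1.09 without ES replicate 2). In piPSC it was above OG2-MEF by 0.62 (SE 0.12, adjusted p = 0.0035), which is 1.53-fold, and below ES by a log2 fold change of -0.49, with a 95% interval from -0.77 to -0.20 (adjusted p = 0.030), or -0.47 without ES replicate 2.

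The probes of Cdc20 disagreed in ES cells. Probe ILMN_2612206 gave differences of 1.05 in piPSC against OG2-MEF, 1.71 in ES against OG2-MEF and -0.67 in piPSC against ES, and probe ILMN_2867901 gave 0.83, 0.87 and -0.04. Probe ILMN_2698767 measured 9.62 and 9.26 in piPSC, 5.32 and 4.69 in ES, and 8.59 and 8.40 in OG2-MEF. On ES replicate 1 it was just above background and on ES replicate 2 it was not. In the fit of every kept probe this probe was higher in piPSC than in ES by 4.43 on the log2 scale (SE 0.25, adjusted p = 0.00051) and lower in ES than in OG2-MEF, at -3.49 (adjusted p = 7.5e-05), while in piPSC against OG2-MEF its 0.94 lay within the range of the other probes. Without ES replicate 2 these values were 4.12 and -3.20. The probes of Cdc20 spanned 5.10 log2 units in piPSC against ES, and 8 of 2684 genes with several kept probes (0.298%) spanned as much, with a median span of 0.57. In piPSC against OG2-MEF they spanned 0.43, against a median of 0.38. The sequences and target positions of the probes are not analysed here, and the cause of the disagreement was not tested. The calls given for Cdc20 rest on probe ILMN_2867899. Of the other probes, ILMN_2612206 rose in ES against OG2-MEF. Unlike the probe used, it also rose in piPSC against OG2-MEF (2.07-fold, adjusted p = 0.00063 in the limma fit of every kept probe). ILMN_2867901 was higher in ES than in OG2-MEF by 1.83-fold without reaching 2-fold, with an interval from -0.54 to 0.46 in piPSC against ES.

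**Figure D3:**
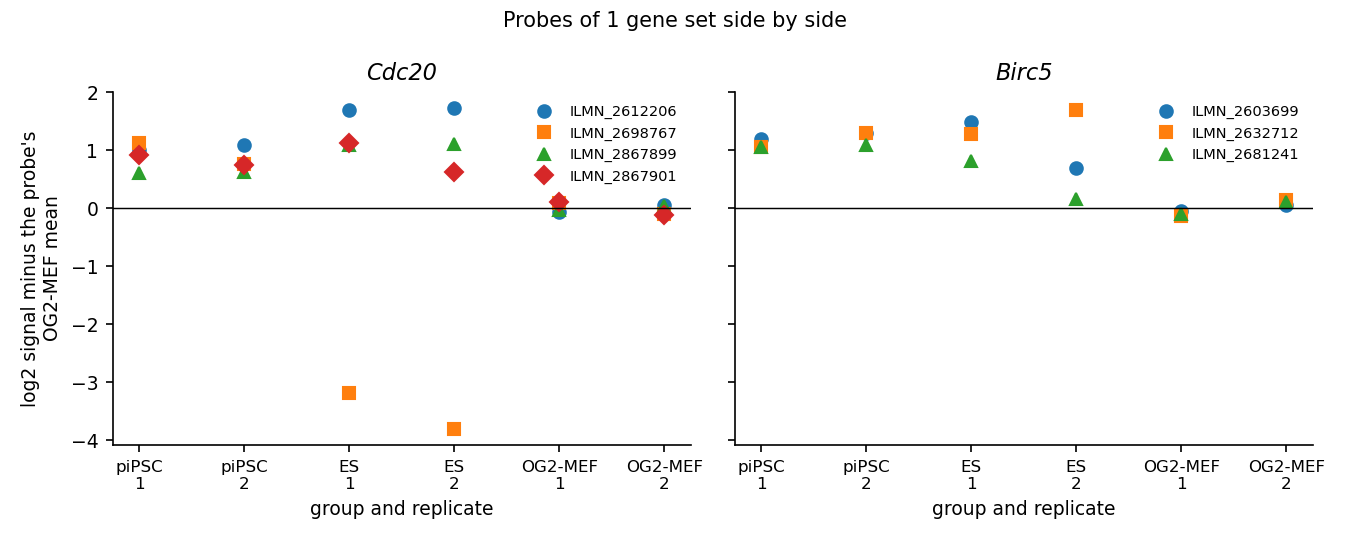
Signal of each probe of Cdc20 (left, 4 probes) and Birc5 (right, 3 probes) on the 6 arrays, as the log2 signal minus the mean of the same probe on the OG2-MEF arrays (y axis); the x axis gives the group and replicate. Each symbol is 1 probe. Cdc20 probe ILMN_2698767 falls more than 3 units below its OG2-MEF mean on both ES arrays while the other 3 probes stand above theirs, and on the piPSC arrays the 4 probes lie together.

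Of the mitotic kinases, Aurka, which drives centrosome maturation and spindle assembly, did not pass as higher in piPSC. Its signal was 10.72 and 10.54 in piPSC, 11.18 and 11.13 in ES, and 10.77 and 10.73 in OG2-MEF. The piPSC arrays lay just below the fibroblast arrays and the ES arrays above both. piPSC differed from OG2-MEF by -0.12, with a 95% interval from -0.43 to 0.18 (adjusted p = 0.42), so an increase of 2-fold lies outside the interval. ES was above OG2-MEF by 0.40 (SE 0.13, adjusted p = 0.028), a 1.32-fold difference, or 0.42 without ES replicate 2. piPSC lay below ES by a log2 fold change of -0.52 (95% interval -0.83 to -0.22, adjusted p = 0.030), or -0.54 without ES replicate 2.

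Plk1, the Polo-like kinase of mitotic entry, spindle poles and cytokinesis, had a different order of groups. It measured 11.17 and 11.26 in piPSC, 10.21 and 10.55 in ES, and 10.36 and 10.56 in OG2-MEF. Both piPSC arrays lay above all others, and the ES and OG2-MEF arrays overlapped. piPSC exceeded ES by 0.84 (95% interval 0.44 to 1.23, adjusted p = 0.017) and OG2-MEF by 0.76 (95% interval 0.36 to 1.15, adjusted p = 0.0060), which are 1.78-fold and 1.69-fold and below the 2-fold limit. Without ES replicate 2 the difference from ES was larger, 1.00 before rounding just under 2-fold. ES differed from OG2-MEF by -0.08 (95% interval -0.47 to 0.31, adjusted p = 0.68), or -0.25 without ES replicate 2, and this sign turned under some settings, over a range from -0.31 to 0.09. Relative to the other members Plk1 had the weakest likeness, with a Pearson r of 0.16 over the 6 arrays between its signal and the mean of the other 7. The same r was 0.997 for Bub1b, 0.99 for Mad2l1, 0.979 for Cenpa, 0.947 for Cdc20, 0.744 for Ttk, 0.619 for Birc5 and 0.38 for Aurka. These correlations describe 6 arrays in 3 groups, which share the arrays and their normalization.

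Birc5, survivin, which targets the chromosomal passenger complex to centromeres, had 3 probes. The probe used measured 11.73 and 11.77 in piPSC, 11.49 and 10.85 in ES, and 10.58 and 10.79 in OG2-MEF. The piPSC arrays were above the fibroblast arrays, and the ES arrays were far apart from each other. Birc5 rose by 1.07 in piPSC against OG2-MEF (SE 0.22, adjusted p = 0.0053), and its other probes rose by 1.24 and 1.18 there. This call fell just short of 2-fold without OG2-MEF replicate 1 (0.97). In ES against OG2-MEF the probe used differed by 0.49 (95% interval -0.05 to 1.03, adjusted p = 0.089), or 0.81 without ES replicate 2, while the other probes were higher by 1.09 (adjusted p = 0.011) and 1.49 (adjusted p = 0.00093). On ES replicate 2, probes ILMN_2681241 and ILMN_2603699 were below ES replicate 1, and ILMN_2632712 was above it. In piPSC against ES the probes gave 0.58, 0.15 and -0.31, and none passed (adjusted p = 0.096 for the probe used, which gave 0.26 without ES replicate 2).

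Cenpa, the centromeric histone variant, measured 13.54 and 13.67 in piPSC, 13.62 and 13.59 in ES, and 12.52 and 12.63 in OG2-MEF. The piPSC and ES arrays overlapped, and all lay above the fibroblasts. It rose by 1.03 in piPSC against OG2-MEF (SE 0.13, adjusted p = 0.00046) and by 1.03 in ES against OG2-MEF (SE 0.13, adjusted p = 0.00041), or 1.04 without ES replicate 2. Both values sit just past the 2-fold limit, and they fell below it under scaling to the same median and without OG2-MEF replicate 1 (0.99 in each comparison), and in piPSC also without piPSC replicate 2 (0.96). Between piPSC and ES the difference was 0.00, with a 95% interval from -0.31 to 0.30 (adjusted p = 0.99; -0.02 without ES replicate 2), so a 2-fold difference either way lies outside the interval.

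**Figure D4:**
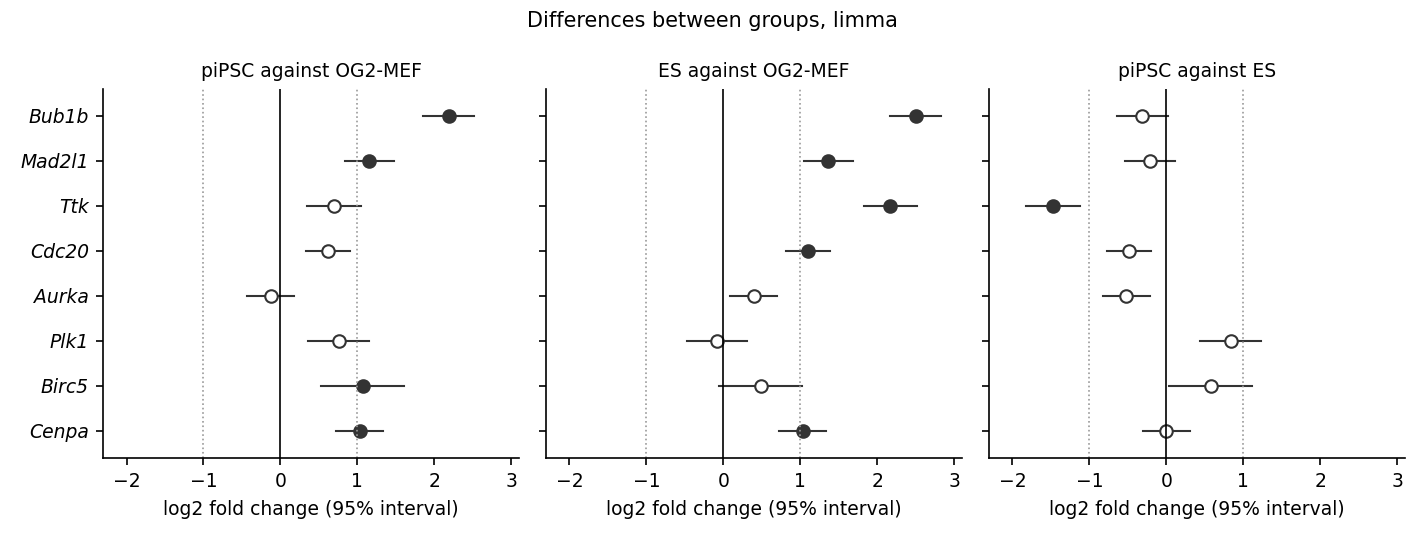
Log2 fold changes of the 8 tested genes with 95% intervals (x axis) in piPSC against OG2-MEF, ES against OG2-MEF and piPSC against ES, from the limma fit of 6 arrays. Filled points passed an adjusted p under 0.05 and a 2-fold change, and dotted lines mark 2-fold. Filled points stand right of 0 for 4 genes in the first panel and 5 in the second, and Ttk at -1.47 is the only filled point in the third.

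Over the 13 kept probes of these genes, 7 rose and 0 fell in piPSC against OG2-MEF, where 19.1% of all 14533 kept probes rose and 21% fell. In ES against OG2-MEF, 8 rose and 1 fell, the Cdc20 probe ILMN_2698767, against 23.2% and 23.4% of all kept probes. In piPSC against ES, 1 rose, the same Cdc20 probe, and 1 fell, that of Ttk, against 7% and 4.03%. The scaling between arrays moved these differences. Scaling the arrays to the same median in place of quantile normalization shifted the median of all features in piPSC against OG2-MEF to -0.18, against 0.02, and reduced the genes that rose to 1 of 8, Bub1b at 1.83, with Mad2l1 at 0.80, Cenpa at 0.87 and Birc5 at 0.72. Taken relative to the median of all features, Mad2l1 was higher by 0.99 with median scaling and by 1.13 with quantile normalization, Cenpa by 1.05 and 1.01, Birc5 by 0.90 and 1.05, and Plk1 by 0.57 and 0.74, while Aurka was at -0.31 and -0.14. In ES against OG2-MEF the median of all features was -0.06 with median scaling and 0.15 with quantile normalization, and the genes that rose were 3 of 8, with Cdc20 at 0.95 and Cenpa at 0.96 below 2-fold.

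The genes whose signal was most like the mean of the 8, over the 6 arrays, were Nudc with a Pearson r of 0.9998, Rpf1 with 0.9996, Gtf2e1 with 0.9996, Wasf1 with 0.9993 and Bmf with 0.9991. They were taken from 5479 named genes whose group means spanned at least 1 log2 unit. With so many candidates and 6 arrays, such values are a description. Nudc measured 13.72 and 13.73 in piPSC, 13.98 and 13.90 in ES, and 12.57 and 12.66 in OG2-MEF.

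The other genes of mitosis were taken from 10 lists with 145 genes, of which 122 had a probe and 103 could be tested. The lists include 1 of general proliferation genes, with 5 tested, which is also described on its own below. In piPSC against OG2-MEF 30 of the 103 rose (29.1%) and 3 fell (2.91%), beside 20% and 21.4% of all features, and their median was 0.55. In ES against OG2-MEF 47 rose (45.6%) and 3 fell (2.91%), beside 25.1% and 21.6%, with a median of 0.95. In piPSC against ES 2 rose and 3 fell, beside 4.32% and 4.34% of all features, and the median was -0.37, against -0.18 over all features. Without ES replicate 2, 50 of 105 rose and 1 fell in ES against OG2-MEF, beside 23.6% and 21.6% of all features, and 0 rose and 1 fell in piPSC against ES, beside 3.89% and 2.57%. That last comparison gave 0 in either direction without piPSC replicate 1, where 0.945% of all features rose and 0.44% fell, and without piPSC replicate 2, where 1.57% and 1.15% did. It gave 6 higher and 4 lower of 103 without ES replicate 1, beside 8.42% and 8.26% of all features, and 0 higher and 3 lower without either OG2-MEF array, beside 2.63% or 2.65% and 3.24%. Under median scaling 20 rose and 7 fell in piPSC against OG2-MEF, beside 15.6% and 26.7% of all features, and 35 rose and 8 fell in ES against OG2-MEF, beside 20.4% and 26%.

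Over all features, 20% rose and 21.4% fell in piPSC against OG2-MEF, and 25.1% and 21.6% did in ES. Partners of Aurora B and survivin and protectors of centromere cohesion rose in piPSC for 3 of 5, with 0 lower. They were Rcc2 (2.14, SE 0.14), Cdca8, which encodes the passenger subunit borealin (1.74, SE 0.46), and the shugoshin gene Sgo1 (1.26, SE 0.14, although its other probe gave 0.25). In ES 4 of 5 rose. Cdca8 was not among them, and its ES arrays were far apart, at 10.15 and 8.58. Without ES replicate 2 it was higher in ES by 1.39, and its difference in piPSC against OG2-MEF was 1.72. Without ES replicate 1 its difference in ES against OG2-MEF was -0.16. Its call in piPSC ended without either piPSC or either OG2-MEF array, although the differences there, from 1.68 to 1.81, were of similar size. The SE of Cdca8 includes the spread of its ES arrays (SD 1.11, against 0.09 in piPSC and 0.03 in OG2-MEF). Of 7 other checkpoint and corona genes, 1 rose in piPSC, Zwilch, a subunit of the complex that brings dynein and Mad1 to kinetochores (1.57, SE 0.31), and 2 rose in ES. The share that rose in piPSC was not above that of all features. The ES arrays of Zwilch were at 7.58 and 6.58. Zwilch was higher in ES than in OG2-MEF by 0.87, by 1.37 without ES replicate 2 and by 0.36 without ES replicate 1.

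Kinetochore genes rose for 9 of 21 in piPSC and for 12 of 21 in ES, with 0 lower in either comparison with OG2-MEF. Of all features 20% and 25.1% rose, and 21.4% and 21.6% fell. The members with the largest changes in piPSC belong to the inner kinetochore network. They were Cenpm by 3.15 (SE 0.18, with 3.28 and 3.30 on its other probes), Cenpp by 2.66 (SE 0.16) and Cenph by 2.49 (SE 0.15). In ES they rose by 3.74, 2.24 and 2.33, or by 3.69, 2.01 and 2.25 without ES replicate 2. In piPSC against ES 0 of the 21 passed in either direction, beside 4.32% of all features higher and 4.34% lower.

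Downstream of the checkpoint, genes of the APC/C, which the checkpoint inhibits, and of its regulators rose for 2 of 12 in piPSC and fell for 1. Of all features 20% rose and 21.4% fell there, so the share of these genes that rose was not above that of all features. Cdc23 (1.23, SE 0.13) and Anapc13 (1.19, SE 0.13) rose, and Cdc16 fell by 1.19 (SE 0.15). All encode subunits of the ligase. In ES 4 rose and 1 fell, Cdc16 again, at -1.28, or -1.13 without ES replicate 2. There 25.1% of all features rose and 21.6% fell. Of separase, securin and cohesin genes 3 of 9 rose in piPSC and 4 of 9 in ES, with 0 lower. Cdca5, which encodes the cohesion protector sororin, rose by 2.84 in piPSC (SE 0.19), the separase gene Espl1 by 1.44 (SE 0.20) and the cohesin subunit gene Smc3 by 1.24 (SE 0.19).

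The shares of all features were 20% higher and 21.4% lower in piPSC against OG2-MEF, and 25.1% and 21.6% in ES. In the Cdk1 entry switch, 2 of 13 rose and 0 fell in piPSC, a share of rises not above that of all features. In ES 6 rose and 1 fell, Cdk1 itself at -1.13, although its other probe gave 0.81. That call ended without ES replicate 2 (-0.60) and without either OG2-MEF array (adjusted p of 0.10 and 0.069). Mybl2, which encodes B-Myb, the transcription factor that joins the MuvB core for expression of mitotic genes, rose by 4.04 in piPSC (SE 0.17, adjusted p = 7.0e-06), with 12.29 and 12.33 in piPSC, 12.39 and 12.59 in ES, and 8.07 and 8.47 in OG2-MEF. Its other probes gave 3.73 and 4.25 in piPSC against OG2-MEF but -0.34 and 3.67 in ES against OG2-MEF. The phosphatase gene Cdc25a rose by 1.25 in piPSC (SE 0.14). In piPSC against ES, Cdc25c was lower at -1.45 (SE 0.23, adjusted p = 0.0097), with -1.57 on its other probe and -1.09 without ES replicate 2. Cdk1 was higher in piPSC than in ES by 1.29 (adjusted p = 0.035) on the probe used, with 10.99 and 9.93 on the ES arrays, but its other probe gave -0.88. This call ended without ES replicate 2 (0.76) and without either OG2-MEF array (adjusted p = 0.084 for each).

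Of 11 other mitotic kinases and activators, 2 rose and 1 fell in piPSC against OG2-MEF, beside 20% and 21.4% of all features. Aurkc, the Aurora kinase best known from meiosis, was above OG2-MEF in piPSC by at least 1.93-fold (adjusted p = 0.00096). Its signal was 6.02 and 5.90 in piPSC, and it was not above background on either OG2-MEF array, at 4.37 and 4.37. Aurkc counts as a rise on the 3.01-fold difference of the fit, which uses those signals, while the bound lies under 2-fold. It measured 5.11 and 4.42 in ES, above background on 1 of the 2 arrays, and was higher in piPSC than in ES by 1.20 (adjusted p = 0.016), a call that ended without ES replicate 2 (0.89, under 2-fold) and without either OG2-MEF array (adjusted p = 0.055 for each). Melk rose by 1.21 in piPSC against OG2-MEF (SE 0.13) and was lower in piPSC than in ES at -1.02 (adjusted p = 0.0054), although its other probes gave -1.01 and 3.02 in that comparison, and the call ended without ES replicate 2 (-0.94, under 2-fold). Slk, a kinase of the actin and microtubule cytoskeleton, fell by 1.20 in piPSC (SE 0.13). Of mitotic kinesin and spindle genes 5 of 15 rose and 1 fell in piPSC, and 8 rose and 1 fell in ES. In ES 25.1% of all features rose and 21.6% fell. Kif18a rose by 1.71 (SE 0.17), Kif15 by 1.70 (SE 0.15) and Kif22 by 1.68 (SE 0.14) in piPSC, and Ckap5, a microtubule polymerase gene, was lower in piPSC than in ES at -1.23 (SE 0.22, adjusted p = 0.013), a call that ended without ES replicate 2 (-0.97, under 2-fold). The spindle gene that fell in both comparisons with OG2-MEF, Kif2a, is named after its values were seen, with -1.05 in piPSC and -1.35 in ES. Its call ended in ES without ES replicate 2 (-0.98), and in piPSC without piPSC replicate 1 (-0.99) and without OG2-MEF replicate 1 (adjusted p = 0.052). Condensin genes rose for 1 of 5 in piPSC, Ncapd2 (1.46, SE 0.25), and for 3 of 5 in ES, with 0 lower. Of all features 20% and 25.1% rose.

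**Figure D5:**
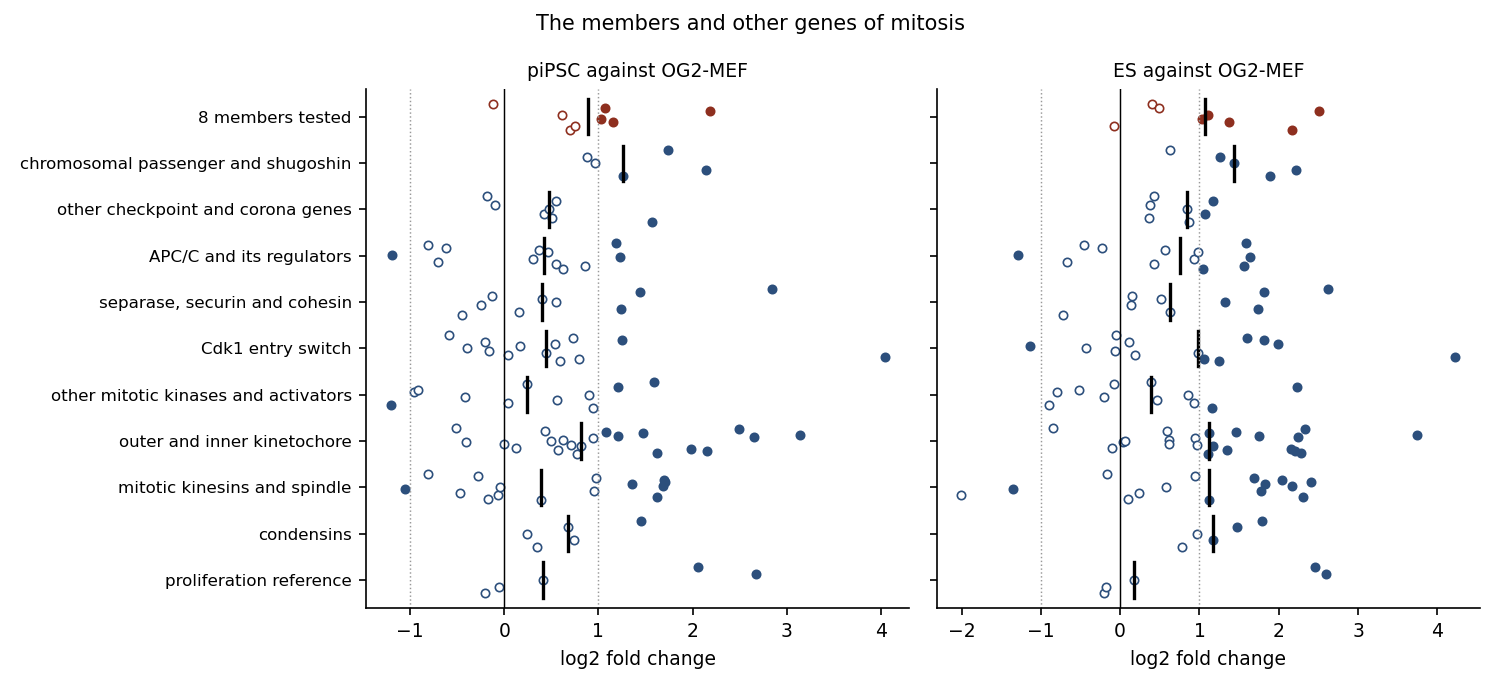
Log2 fold changes (x axis) of the 8 tested genes and of 10 lists of other mitotic genes (rows) in piPSC against OG2-MEF (left) and ES against OG2-MEF (right). The last list holds general proliferation genes. Each point is 1 gene, filled where it passed an adjusted p under 0.05 and a 2-fold change, and the vertical bar is the median of the row. The medians of the 8 genes stand at 0.89 and 1.07, and 30 and 47 of 103 listed genes are filled right of 0.

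Of 5 general proliferation genes, which are also counted among the 103 listed genes above, 2 rose and 0 fell in each comparison with OG2-MEF. Of all features 20% rose and 21.4% fell in piPSC, and 25.1% and 21.6% in ES. Pcna, the sliding clamp of replication (2.06, SE 0.21), and Stmn1, a microtubule destabiliser (2.67, SE 0.17), rose in piPSC against OG2-MEF, and in ES they rose by 2.46 and 2.60, or by 2.27 and 2.52 without ES replicate 2. Those that did not pass were Top2a, with 0.41 in piPSC and 0.18 in ES, Tuba1b, with -0.06 and -0.18, and Tubb5, with -0.20 and -0.20. The ES arrays of Top2a were far apart, at 11.99 and 10.17, with 10.90 and 10.91 in OG2-MEF. Its 0.18 thus averages ES replicate 1, above both OG2-MEF arrays, and ES replicate 2, below both. Of 5 arrest genes, 3 fell in piPSC and in ES: Cdkn1a by 1.64 and 2.16, Cdkn2b by 2.18 and 2.31 and Cdkn1c by 2.49 and 1.80. Cdkn2a rose by 1.62 in piPSC and by 2.00 in ES, and Ccng1 did not reach 2-fold, with -0.96 and -0.77. Without ES replicate 2 the values in ES were -2.04 for Cdkn1a, -2.41 for Cdkn2b, -2.06 for Cdkn1c and 1.73 for Cdkn2a. The arrest list averaged 10.21 and 10.17 in piPSC, 10.19 and 10.42 in ES, and 11.29 and 11.35 in OG2-MEF. Of 3 tested macrophage genes, 1 rose and 1 fell in each comparison with OG2-MEF, named after their values were seen: Laptm5 at 5.24 in piPSC and 4.98 in ES, and Cd14 at -1.46 and -2.22 (5.00 and -2.13 in ES without ES replicate 2). The part of growth state, of feeder cells or of other cells in the differences of the mitotic genes was not tested.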

How the data were processed

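The deposited table holds linear, non-normalized intensity values, and per the file headers a detection p-value beside each, and the authors' deposited series matrix holds log2 values. Those log2 values equal quantile-normalized log2 intensities within 0.0012. Per the labels, 500 ng of RNA went into labelling with biotin. Scanner software and its background subtraction are not given in the sources used here.

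Background was corrected with neqc (limma 3.58.1, R 4.3.3), which applies normexp using the detection p-values, adds an offset, here 16, and quantile-normalizes the log2 values. Current symbols came from the RefSeq table of GRCm38.p6 by Entrez identifier or accession (23978 probes with 1 symbol, 1719 with none). The 14533 probes with detection p under 0.05 on both arrays of a group gave 10748 features, the brightest probe for each of 9900 genes and 848 unnamed probes. Groups were compared with lmFit and eBayes in 1 fit of 6 arrays (3 residual degrees of freedom, prior degrees of freedom 3.33), adjusted by Benjamini-Hochberg within each comparison, and the script was tested on simulated data. Every kept probe was also fitted. SE is moderated, and an interval is the 95% interval of that fit. "At least" sets a group with no detected array, per array, to the lowest signal above background or to its own signal where that was higher. Named from each list were up to 3 genes with the largest change among those that changed in piPSC against OG2-MEF, and likewise against ES. The members and lists were chosen with earlier results of these data known. Alternatives covered the authors' matrix, offset, scaling, filter, probe choice, fold limit, replicate block, array weights, trend, 2 groups alone and each array left out. Combinations with ES replicate 2 left out, and the list counts and named list genes under other settings, were added after seeing the data.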

Additional observations from a re-analysis of the deposited data

How the results depend on the processing

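The counts of tested genes that changed kept within 1.5 times of their value under most of the alternatives tried, with these exceptions. In piPSC against OG2-MEF the 4 genes that rose became 1 under median scaling and 7 with a fold limit of 1.5 or none, and 2 to 4 with 1 array left out (2 without OG2-MEF replicate 1). In ES against OG2-MEF the 5 became 3 under median scaling and 4 to 5 with 1 array left out, and the 0 that fell became 1 with every kept probe tested, also without ES replicate 2. In piPSC against ES the 0 that rose became 1 with every kept probe or a fold limit of 1.5 or none, and the 1 that fell became 3 with no fold limit and 0 to 1 with 1 array left out (0 without piPSC replicate 1). The reversed values are those of Cdc20 probe ILMN_2698767, -3.49 and -3.20 in ES against OG2-MEF and 4.43 and 4.12 in piPSC against ES, in each case with both ES arrays and without ES replicate 2; the cause was not tested. Over all features, those that changed in piPSC against ES numbered 930, but 614 on the authors' matrix (433 without ES replicate 2), 519 with an offset of 50, 2385 with a fold limit of 1.5, 2933 with none and 151 to 1820 with 1 array left out (lowest when piPSC replicate 1 was dropped, 298 when piPSC replicate 2 was, and highest when ES replicate 1 was). With no fold limit 7321 changed in piPSC against OG2-MEF and 7868 in ES against OG2-MEF, against 4454 and 5020. Median scaling split the changed features of piPSC against OG2-MEF into 1678 higher and 2875 lower, against 2150 and 2304, and those of piPSC against ES into 468 and 306, against 464 and 466, where the authors' matrix gave 401 and 213. Replicate numbers are shared by the groups, and arrays of the same number were not taken as pairs. Deviations of same-numbered arrays correlated at 0.06 in piPSC and OG2-MEF, 0.25 in ES and OG2-MEF and 0.01 in piPSC and ES. With 2 arrays per group the deviations of a group are equal and opposite, so these values cannot settle whether arrays were paired. A replicate block changed the counts of features to 4462, 5028 and 948 and none of the member counts. Leaving out 1 array of a group assumes that the other varies like the other groups.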
